A study of Rattus norvegicus with 32 samples.

Results

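The genes Cxxc4, Arhgef25, Ptpn3, Pbxip1, Fbxl16 and Cmc1 were followed through every RNA-seq sample of the series. They are 6 of the 28914 gene names in the count files, and they were picked because each had a low adjusted p in at least 1 fit of METH against saline, with neither the fits nor a threshold given. An adjusted p, or FDR, is a p corrected over all genes of a fit by the Benjamini-Hochberg method. The lowest adjusted p found here for METH against saline was 2.03e-23 for Cxxc4 and 2.52e-10 for Arhgef25, both in the DG by DESeq2. It was 0.00946 for Ptpn3 in the DG with 4 RUVr factors (unwanted variation estimated from the residuals of the same fit). For Pbxip1 it was 0.000399 in the NAc by DESeq2, for Fbxl16 0.0121 in the NAc with 4 RUVr factors and for Cmc1 0.00391 in the SVZ by DESeq2. Whether these fits are the ones that picked the genes is not known, but the contrast is the same, so the METH differences below are a description. Levels were also compared between regions in saline samples, but those samples are one side of the contrast that chose the genes, so the p-values of these comparisons are not independent of the choice, most directly for pairs with the region named here for a gene.

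Adult male Sprague-Dawley rats, with no transgene or other genetic change named in the labels, were injected intraperitoneally with METH (methamphetamine, 10 mg/kg) or with saline (Sal), 4 times at intervals of 2 h, and the brain was taken 24 h after the last injection. From the hippocampus came the DG (dentate gyrus) and the CA (Ammon's horn), and beside them the NAc (nucleus accumbens) and the SVZ (subventricular zone) were taken. Each region gave 4 saline and 4 METH samples, 32 in all, in 8 groups. The NAc and SVZ were punched from slices and the DG and CA were scooped from the hippocampus, so each sample is a mixture of cell types. The labels number the samples without tying them to animals, so the p-values measure the spread between these samples.

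The 6 genes have unrelated roles. Cxxc4 (also named IDAX) carries a zinc finger that binds unmethylated CpG DNA, binds Dishevelled to dampen Wnt signalling and regulates the TET2 protein. Arhgef25 is a guanine nucleotide exchange factor that turns on the GTPase RhoA downstream of Gq-coupled receptors. Ptpn3 is a protein tyrosine phosphatase with a FERM and a PDZ domain at the membrane cytoskeleton, Pbxip1 binds PBX homeodomain proteins and microtubules, Fbxl16 is an F-box protein with leucine-rich repeats that is abundant in brain, and Cmc1 is a twin CX9C protein of the mitochondrial intermembrane space that helps assemble cytochrome c oxidase.

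The deposited values are read counts per gene, with totals from 11094002 to 21869773 per sample. In the file headers the SVZ libraries carry numbers of their own (1667 to 1672) and no run name found in another region. Every comparison of the SVZ with another region is therefore also one between library sets, and the 2 cannot be told apart. Levels are given as CPM, in which the counts of a sample are scaled to its library size (adjusted by the upper quartile), so that 1 read was worth 0.0460 to 0.0940 CPM. Markers of region and cell type, summed in CPM, set several libraries apart from their label. DG Sal 3 had 9.60 CPM of hippocampal and cortical glutamatergic markers, against 1354 to 1886 in the other DG saline samples, and 1728 CPM of striatal medium spiny neuron markers against 167 to 279. NAc METH 3 had 222 CPM of the striatal markers, against 1498 to 7480 in the other NAc samples. SVZ Sal 1, METH 2 and METH 4 had 1879, 1657 and 1112 CPM of thalamic markers, against 91.5 to 519 in the other SVZ samples. Choroid plexus markers reached 2083 CPM in DG Sal 4, 6186 in DG METH 3, 2164 in CA Sal 2 and 8301 in SVZ METH 3. Dentate granule neuron markers were not higher in DG than in CA saline samples. They summed to 28.2 to 201 CPM in the DG (median 64.3) and 46.1 to 398 CPM in the CA (median 223).

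**Figure D1:**
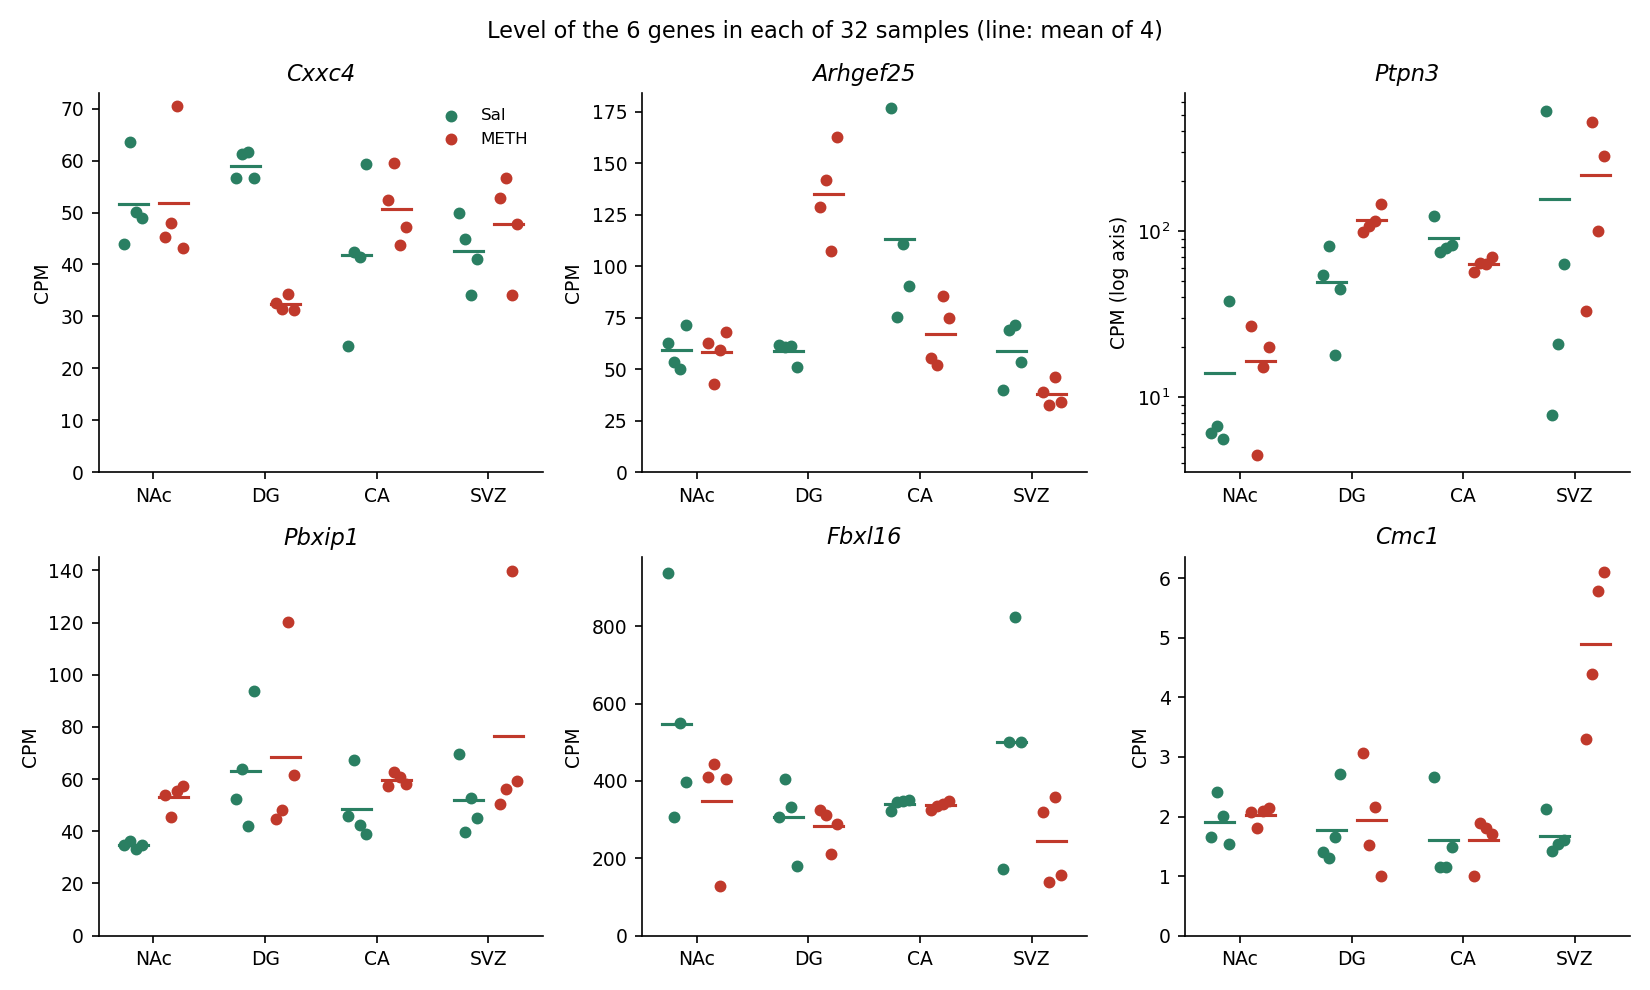
Level of each gene in CPM (vertical axis, a log axis for Ptpn3) in the 4 saline (green) and 4 METH (red) samples of each region (horizontal axis), with a line at the group mean. Cxxc4 in the DG METH samples lay between 31.2 and 34.2 CPM, below every DG saline sample, and Cmc1 in the SVZ METH samples lay between 3.30 and 6.10 CPM, above every SVZ saline sample.

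Levels differed widely between the genes. Per kilobase of exon, the median over the 32 samples was highest for Fbxl16 at 234 CPM per kb, followed by Arhgef25 at 29.6, Pbxip1 at 17.9, Cxxc4 at 8.85, Ptpn3 at 8.31 and Cmc1 at 2.68. Within a gene, Cxxc4 varied least, with its highest sample 2.91-fold above its lowest, and Ptpn3 varied most, at 119-fold. Cmc1 rested on 12 to 130 reads per sample and Fbxl16 on 1846 to 17120. All 6 genes passed the filter on low counts in every region.

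In the METH comparison, the 4 saline and 4 METH samples did not overlap for 3 of the 6 genes in the DG, where this held for 7.39% of all 14800 genes tested. They did not overlap for 1 of the 6 in the NAc (2.26% of 14771 genes), 1 of the 6 in the CA (4.43% of 14612) and 1 of the 6 in the SVZ (1.6% of 15579). Since the genes were chosen on this contrast, nothing is read from these counts. In edgeR's quasi-likelihood fit of each region by itself, 1 gene of the DG had an FDR under 0.05 (0.00676% of those tested), which was Cxxc4, and 0 genes did in the NAc, CA and SVZ. At an unadjusted p under 0.05 there were 500, 1046 and 402 genes in those 3 regions, 3.39%, 7.16% and 2.58% of those tested, and 1890 (12.8%) in the DG. In the DG, DESeq2 called 499 of 14376 genes at an FDR under 0.05 (3.47%), Cxxc4 and Arhgef25 among them.

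**Figure D2:**
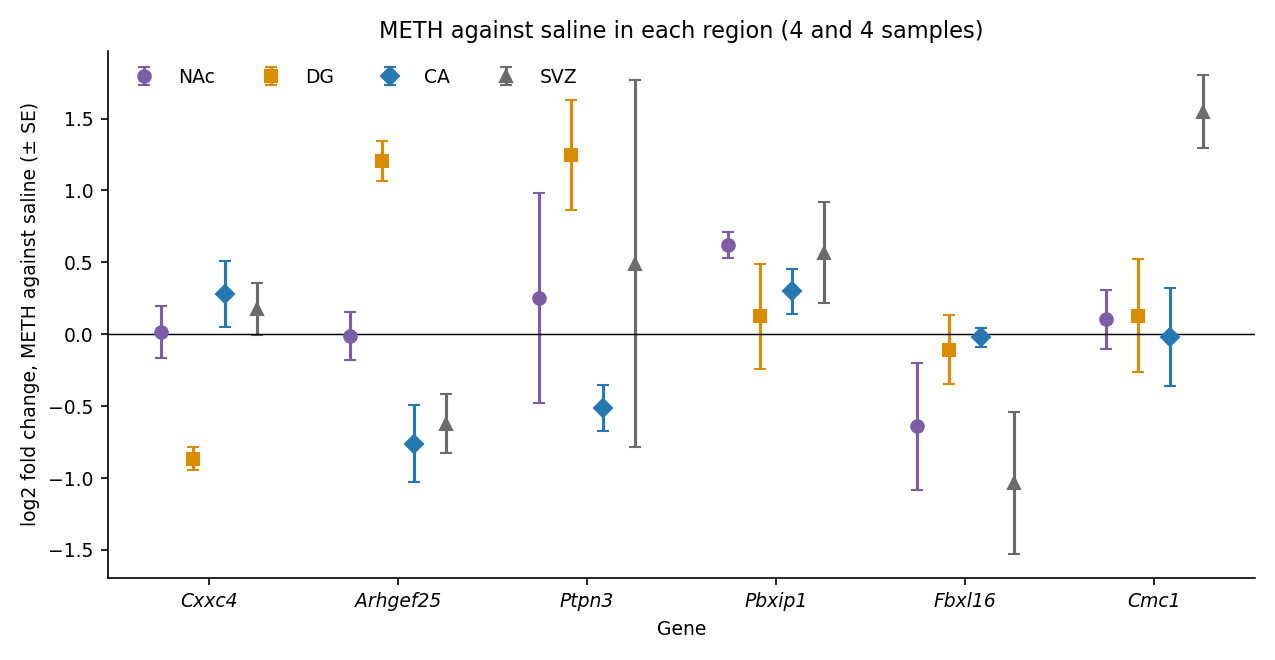
Log2 fold change of METH against saline (vertical axis, with its standard error) for each gene (horizontal axis) in the NAc, DG, CA and SVZ, from edgeR's fit of the 8 samples of a region. In the DG, Cxxc4 lies at -0.87 and Arhgef25 at 1.21, and in the CA Arhgef25 lies at -0.76.

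Cxxc4 lies on chromosome 2 of rn6, from 239415046 to 239439568 on the plus strand, with 3 blocks of exon sequence and 5374 exonic bases. It shares 79 exonic bases with the microRNA gene Mir1895 on the minus strand, and counting ignored strand, so reads in those bases cannot be assigned to either gene. In the DG its level was 56.6, 61.3, 61.6 and 56.7 CPM in saline samples 1 to 4 and 32.7, 31.5, 34.2 and 31.2 CPM in METH samples 1 to 4. All 4 METH samples were lower than all 4 saline samples, and the spread within each group was small, with means of 59.1 ± 2.74 and 32.4 ± 1.37 CPM (SD, n = 4). The log2 fold change was -0.87 (SE 0.08), with an FDR of 0.0465 in edgeR's fit over 14800 genes. The FDR rose above 0.05 with TMM normalization (0.0512), with no filter on low counts (0.0898) and with the run as a covariate (0.117), and it was 0.0341 in 1 fit of all 32 samples by edgeR. Without DG Sal 3 it was -0.84 with an FDR of 0.0818 by edgeR, and over all samples left out in turn it stayed between -0.89 and -0.84 with FDRs between 0.0329 and 0.329 by edgeR. In bulk tissue, fewer cells of a type that expresses the gene and less of its RNA per cell cannot be told apart.

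In the other 3 regions the groups overlapped. The NAc saline samples had 44.0, 63.6, 50.2 and 48.9 CPM and the NAc METH samples 45.2, 48.0, 70.6 and 43.1 CPM, a log2 difference of 0.02. The CA saline samples had 24.3, 42.5, 41.4 and 59.3 CPM and the METH samples 52.5, 59.6, 43.7 and 47.2 CPM, a log2 difference of 0.28 (SE 0.23). In the SVZ, saline samples ranged from 34.1 to 49.9 CPM and METH samples from 34.1 to 56.7 CPM, a log2 difference of 0.18 (SE 0.18). CA Sal 1, at 24.3 CPM, was the lowest of the 32 samples, so the low level was not limited to DG METH samples.

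Between regions in saline samples, the mean of Cxxc4 ran from 59.1 CPM in the DG through 51.7 in the NAc and 42.5 in the SVZ to 41.9 in the CA. None of the 6 region pairs passed an FDR of 0.05 in edgeR's quasi-likelihood test of 15515 genes or in DESeq2, although 2 had an unadjusted p under 0.05. These were the CA against the DG, at -0.50 log2 (95% interval -0.94 to -0.0614, FDR 0.521), and the SVZ against the DG, at -0.48 (95% interval -0.91 to -0.0402, FDR 0.245), where 0.0516% of all genes passed. With each sample left out in turn the CA difference ran from -0.71 to -0.30 and the SVZ difference from -0.56 to -0.38. The SVZ and DG samples did not overlap, which held for 5.89% of all genes. In METH samples the order was the NAc at 51.7, the CA at 50.8, the SVZ at 47.8 and the DG at 32.4 CPM. The DG thus held the highest saline mean and the lowest METH mean of this gene.

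Of 25 relatives and Wnt pathway genes listed for Cxxc4, 24 were tested. In the DG 4 of them were lower with METH at an unadjusted p under 0.05 and 0 were higher, beside 6.42% and 6.35% of all genes, and 0 passed an FDR of 0.05. The 4 were Csnk1e, a casein kinase that phosphorylates Dishevelled (-0.34, SE 0.11), Tet2, a dioxygenase that oxidises methylcytosine (-0.28, SE 0.10), Axin2, a scaffold of the β-catenin destruction complex (-0.26, SE 0.11), and Nkd2, an inhibitor that binds Dishevelled (-0.84, SE 0.35). The median log2 difference of the list was -0.14 in the DG, against -0.01 over all genes. In the CA, 4 list genes were higher (Tet3, Dact3, Tcf7 and Lrp5) and 0 lower, beside 4.37% and 2.79% of all genes, and in the NAc and SVZ 0 reached an unadjusted p under 0.05, beside 3.39% and 2.58% of all genes (in the NAc 2.42% higher and 0.968% lower). Cxxc5, the closest relative of Cxxc4, differed by -0.05 (SE 0.23) in the DG, and Dvl1, a Dishevelled, by -0.14 (SE 0.10).

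Over the 32 samples, the genes whose log2(CPM + 1) followed Cxxc4 most closely among 16122 were Dpp10 (Pearson's r = 0.79), Rassf5 (0.79) and Il1rapl2 (0.77), or 0.64, 0.78 and 0.54 with group means removed. Dpp10 encodes an auxiliary subunit of Kv4 potassium channels, Rassf5 a protein that binds Ras and Rap, and Il1rapl2 a receptor of the interleukin-1 family. Dpp10 ranged from 51.1 to 93.5 CPM in DG saline and from 17.2 to 32.5 CPM in DG METH samples. These samples share regions and treatments, so r is a description.

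Arhgef25 lies on chromosome 7 of rn6, from 70469312 to 70476340 on the minus strand, with 16 blocks of exon sequence and 2104 exonic bases. In the DG its level was 61.9, 60.7, 61.3 and 50.9 CPM in saline samples and 129, 142, 108 and 163 CPM in METH samples. All METH samples were higher, with means of 135 ± 23.3 against 58.7 ± 5.22 CPM (SD, n = 4), a log2 fold change of 1.21 (SE 0.14, FDR 0.0646 by edgeR). The FDR by edgeR fell below 0.05 in 1 fit of all 32 samples (0.0158) and with 1, 2 and 4 RUVr factors (0.0368, 0.0202 and 0.00946). RUVr factors are estimated from the residuals of the same fit of treatment. They take up spread within the groups, so lower FDRs with them are in part built in. Without DG Sal 3 the fold change was 1.23 (FDR 0.0818), and it stayed between 1.10 and 1.30 whichever sample was left out, with FDRs between 0.0478 (without DG Sal 1) and 0.329.

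In the CA the difference ran the other way, with 177, 75.4, 111 and 90.3 CPM in saline and 55.5, 52.3, 85.4 and 75.0 CPM in METH samples. The groups overlapped, since METH 3 was above Sal 2, and the log2 fold change was -0.76 (SE 0.27, FDR 0.669 by edgeR). It rested in part on CA Sal 1, the highest of the 32 samples: without it the value was -0.46. In the file headers the word merged stands in the library names of CA Sal 1 and CA Sal 2 and of no CA METH sample. CA Sal 1 also had the largest total of the CA libraries, at 19350101 reads. With 4 RUVr factors the fold change was -0.70 (SE 0.095, FDR 0.00562 by edgeR). In the SVZ the saline samples had 40.0, 69.2, 71.6 and 53.6 CPM and the METH samples 39.0, 32.7, 46.1 and 34.0 CPM, a log2 fold change of -0.62 (SE 0.21, FDR 0.979) with METH 3 above Sal 1. With 4 RUVr factors the FDR in the SVZ was 0.0283 by edgeR. In the NAc the means were 59.3 ± 9.64 CPM in saline and 58.2 ± 10.8 CPM in METH samples (SD, n = 4), a log2 difference of -0.01 (SE 0.17). Arhgef25 was therefore higher with METH in the DG, lower on average in the CA and SVZ, and near its saline level in the NAc.

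In saline samples Arhgef25 was highest in the CA, at 113 ± 44.7 CPM, while the NAc, DG and SVZ had similar means of 59.3, 58.7 and 58.6 CPM. It was the gene of the 6 for which region pairs passed the edgeR test. The CA was above the NAc by 0.94 log2 (SE 0.24, FDR 0.0407), where 5.1% of 15515 genes passed, and the groups did not overlap, which held for 21.8% of genes. The CA was also above the SVZ, whose difference from the CA was -0.95 (SE 0.24, FDR 0.0220), where 13.2% passed and 21.3% did not overlap. In pairs with the SVZ, region and library set cannot be told apart. The CA against the DG gave 0.95 (SE 0.24) with an FDR of 0.482, where 0% of genes passed and 3.67% did not overlap, this gene among them. DESeq2 called the same 2 of 6 pairs, beside 11.6% and 19.4% of all genes in DESeq2. With the replicate number as a block, which pairs NAc and CA samples, the CA against the NAc no longer passed (0.91, FDR 0.0670), while the SVZ against the CA did (FDR 0.0467). The SVZ libraries carry other numbers, and same-numbered CA and SVZ saline samples did not deviate together (r from -0.15 to 0.06). For that pair the block therefore ties samples with no shown link. Leaving out NAc Sal 1, 2 or 3, CA Sal 1 or 3, or SVZ Sal 2 or 4 also raised the FDR of the CA against the NAc above 0.05, to between 0.0510 and 0.128, and without CA Sal 1 the difference was 0.64. For the SVZ against the CA, leaving out CA Sal 1, CA Sal 3 or SVZ Sal 4 gave FDRs of 0.0658, 0.0532 and 0.0543.

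**Figure D3:**
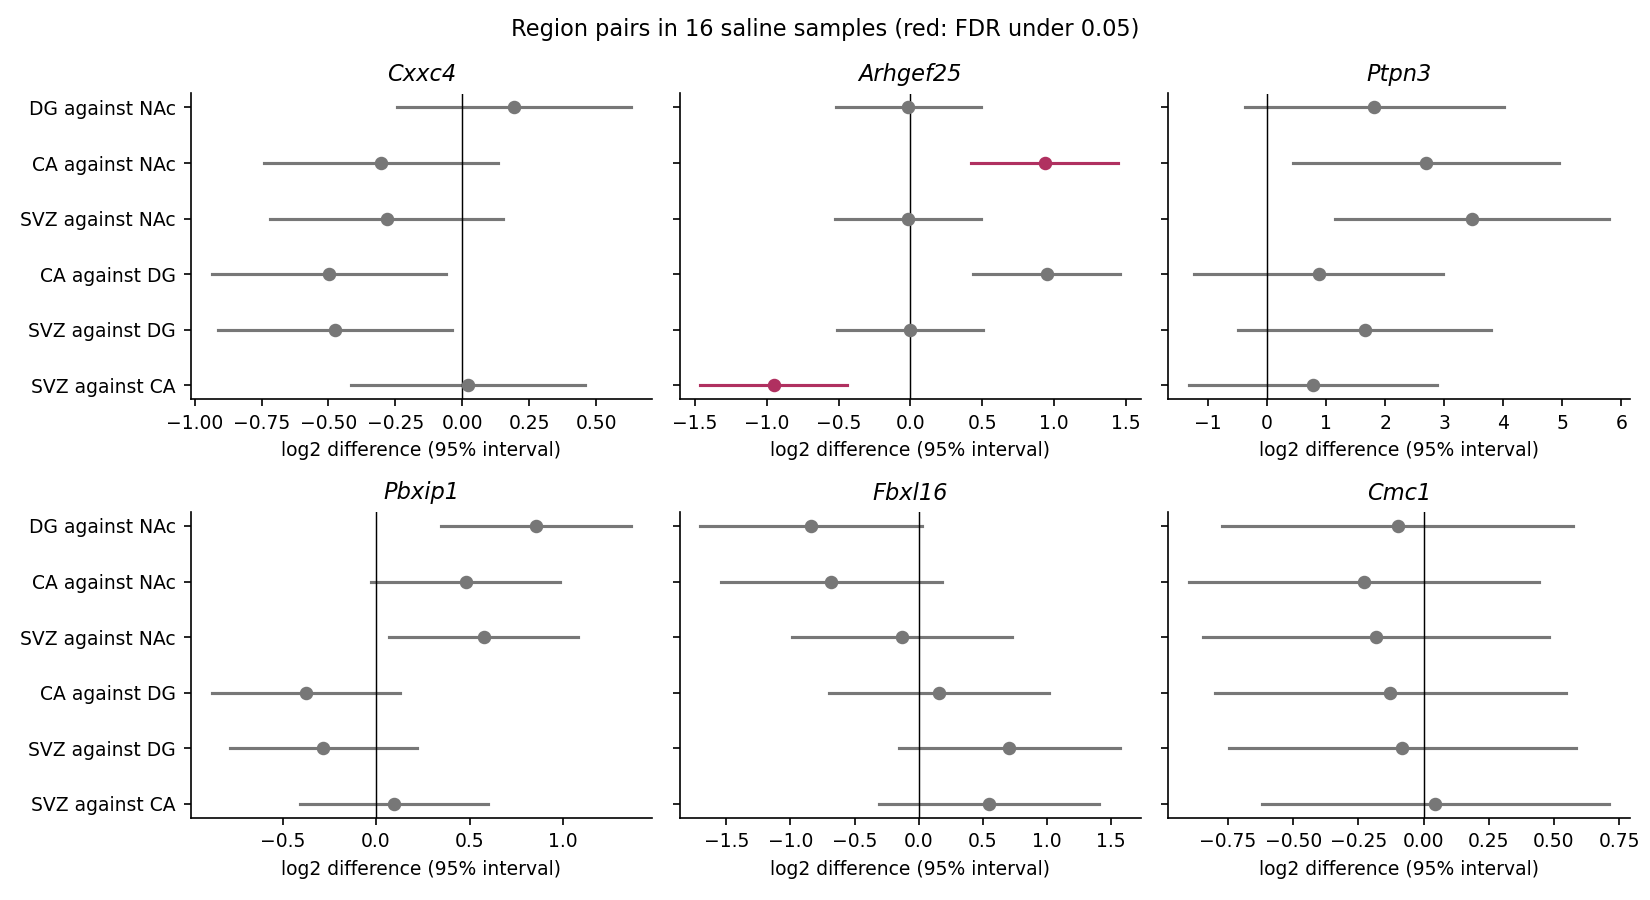
Log2 difference between regions in the 16 saline samples (horizontal axis, with a 95% interval) for each of the 6 region pairs (vertical axis) and each gene, with pairs at an FDR under 0.05 in red. The CA against the NAc, at 0.94, and the SVZ against the CA, at -0.95, are the red pairs, both of Arhgef25.

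In METH samples the order of Arhgef25 was another, with means of 135 CPM in the DG, 67.0 in the CA, 58.2 in the NAc and 38.0 in the SVZ. Of the 23 genes listed around Trio-family exchange factors, Gq and RhoA, all were tested. In the DG 2 were higher at an unadjusted p under 0.05, Rhob, an endosomal small GTPase (0.48, SE 0.13), and Gna11, a Gq-class alpha subunit (0.32, SE 0.14), and 1 was lower, Limk1, a kinase that inactivates cofilin (-0.51, SE 0.16), so 3 of 23 passed beside 12.8% of all genes. In the CA Arhgef1 was higher (0.26, SE 0.11), beside 4.37% of all genes, and in the NAc and SVZ 0 list genes reached that p. The closest relatives Trio and Kalrn differed in the DG by 0.19 (SE 0.12) and 0.32 (SE 0.31), and Gnaq by 0.29 (SE 0.15), with unadjusted p-values of 0.166, 0.335 and 0.0908 by edgeR.

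Slc16a14, a member of the monocarboxylate transporter family (r = 0.88 over 32 samples), Actr3, a subunit of the Arp2/3 actin complex (0.87), and Kbtbd11 (0.87) followed Arhgef25 most closely, at 0.65, 0.64 and 0.75 with group means removed. Slc16a14 ranged from 13.1 to 30.9 CPM in DG saline and from 47.0 to 87.3 CPM in DG METH samples, and its highest CA sample was CA Sal 1 at 83.9 CPM. Between Cxxc4 and Arhgef25 r was -0.66 over 32 samples and -0.64 once the mean of each group was removed. Within regions it was -0.23 in the NAc, -0.85 in the CA and -0.68 in the SVZ (8 samples each), while the value in the DG, -0.97, restates the DG differences, where both genes had their lowest adjusted p. CA Sal 1, a saline sample, had the lowest Cxxc4 and the highest Arhgef25.

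**Figure D4:**
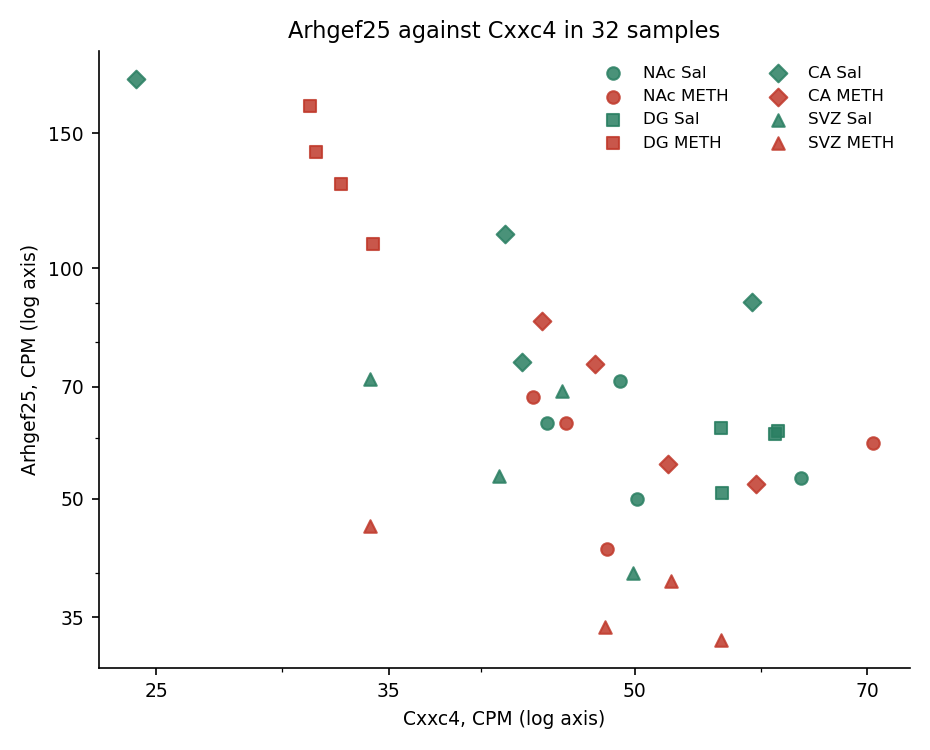
Arhgef25 against Cxxc4 in CPM (both log axes) in 32 samples, with regions as shapes and saline in green, METH in red. The 4 DG METH samples, at 31.2 to 34.2 CPM of Cxxc4 and 108 to 163 CPM of Arhgef25, and CA Sal 1, at 24.3 and 177 CPM, form the upper left.

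In the DG, the summed level of 6 astrocyte markers was 2440 to 3014 CPM in saline and 3446 to 3661 CPM in METH samples, without overlap. Without Gfap the groups overlapped, at 1925 to 2625 and 2571 to 2987 CPM, and so did Gfap alone. Of the 6 markers, 2 had an unadjusted p below 0.05 upwards, beside 6.35% of all genes. Dentate granule neuron markers overlapped, at 28.2 to 201 CPM in saline and 73.2 to 415 CPM in METH samples. At an unadjusted p under 0.05, 1 of the 3 tested was higher in the DG (6.35% of all genes) and 1 was lower in the CA (2.79%), and their median log2 difference was 1.59 in the DG and -0.90 in the CA, against 0.27 and 0.15 for the 6 astrocyte markers. CA Sal 1 and CA Sal 3, the CA samples with the most Arhgef25, had 335 and 398 CPM of the dentate markers, against 46.1 to 199 in the other 6 CA samples. Their astrocyte markers were 3674 and 3558 CPM, against 2712 and 2733 in CA Sal 2 and 4 and 3223 to 3986 in CA METH samples. With group means removed, r with dentate and astrocyte markers was 0.18 and 0.66 for Arhgef25 and -0.14 and -0.33 for Cxxc4. Over the 32 samples it was 0.42 and 0.51 for Arhgef25 and -0.42 and -0.35 for Cxxc4. The part of these cell types in the differences of Cxxc4 and Arhgef25 was not tested. Library names in the file headers also bear on the DG. DG Sal 1 and 2 carry the numbers 20 and 21 and DG METH 1 and 2 the numbers 14 and 15, whereas in the NAc and CA 14 and 15 are saline and 20 and 21 METH. In DG replicates 3 and 4 alone, whose numbers match, the log2 fold change was -0.86 for Cxxc4 and 1.26 for Arhgef25, with FDRs of 0.712 and 0.731 by edgeR. Those 4 samples include DG Sal 3, with striatal markers, and DG Sal 4 and METH 3, with choroid plexus markers, so they give no separate check of the numbers. Whether the numbers or the treatment labels of DG samples 1 and 2 are exchanged was not tested, and every DG difference given here, that of Ptpn3 included, follows the labels.

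The DG groups also differed in the run named in the file headers. Saline samples 1, 2 and 4 came from a run named RNA3, Sal 3 with METH 1 and 2 from a run named JJ, and METH 3 and 4 from a run named RNA2. Only the JJ run held samples of both treatments. Within it, Cxxc4 was 61.6 CPM in Sal 3 and 32.7 and 31.5 CPM in METH 1 and 2, and Arhgef25 was 61.3 against 129 and 142 CPM. With the run as a covariate the fold changes were -0.95 (SE 0.15, FDR 0.117) and 1.14 (SE 0.28, FDR 0.226) by edgeR. DG Sal 3, the library with striatal markers, was the one saline sample in the JJ run, so these values rest on it.

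Ptpn3 lies on chromosome 5 of rn6, from 74248996 to 74368186 on the minus strand, with 27 blocks of exon sequence and 7601 exonic bases. In the DG its level was 54.5, 80.8, 17.9 and 44.5 CPM in saline and 98.9, 108, 114 and 146 CPM in METH samples. All METH samples were higher, by 1.25 log2 (SE 0.38, FDR 0.263 by edgeR). The lowest sample, DG Sal 3, is the one with striatal markers, and without it the difference was 0.97 (SE 0.22, FDR 0.176). With the run as a covariate, which sets DG Sal 3 against METH 1 and 2, it was 2.53.

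In the CA every METH sample was lower than every saline sample, with 124, 75.1, 79.5 and 82.8 CPM in saline and 56.6, 64.2, 63.2 and 69.5 CPM in METH samples. The log2 fold change was -0.51 (SE 0.16, FDR 0.669), and without CA Sal 1, a library named merged, it was -0.32. With 4 RUVr factors it was -0.49 (FDR 0.0190 by edgeR). In the SVZ the samples of both groups spread widely, at 531, 7.80, 20.8 and 63.1 CPM in saline and 33.0, 454, 99.6 and 284 CPM in METH samples. The 3 highest, Sal 1, METH 2 and METH 4, are the libraries that stood apart in thalamic markers. The log2 fold change in the SVZ was 0.49 (SE 1.28), 1.12 (SE 0.85) without those 3 libraries, 2.83 without Sal 1 alone and -0.16 without METH 2 alone. In the NAc the saline samples had 6.03, 6.68, 5.57 and 37.6 CPM and the METH samples 26.6, 4.47, 15.2 and 20.0 CPM, a log2 difference of 0.25 (SE 0.73), or 1.45 without NAc Sal 4. That sample, the high one in saline, also had the most hippocampal and cortical glutamatergic markers of the 8 NAc samples, at 771 CPM.

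Saline means of Ptpn3 ran from 156 CPM in the SVZ through 90.3 in the CA and 49.4 in the DG to 14.0 in the NAc. The CA was 2.69 log2 above the NAc (SE 1.05), without overlap (21.8% of all genes) but with an FDR of 0.136, where 5.1% of genes passed. With each sample left out in turn this difference ran from 2.43 to 3.89, the highest without NAc Sal 4, and its FDR by edgeR from 0.0350 to 0.292, the lowest without SVZ Sal 1. Of the 6 pairs 0 passed in edgeR and 2 had an unadjusted p under 0.05. DESeq2 called 1, the SVZ against the NAc (FDR 0.0306), where 2.08% of all genes passed in DESeq2 and 0.11% in edgeR. In edgeR that difference was 3.47 (SE 1.08, FDR 0.214), 2.68 with the replicate block (FDR 0.370) and 1.13 without SVZ Sal 1 (FDR 0.586), and it reached 4.67 without NAc Sal 4. Without DG Sal 3 and SVZ Sal 1 the CA against the NAc passed, at 2.69 with an FDR of 0.0222 by edgeR, where 2207 genes passed. In the same fit the SVZ against the CA turned from 0.78 to -1.56 (FDR 0.138), so the place of the SVZ in the order rested on SVZ Sal 1. In METH samples the means were 218 CPM in the SVZ, 117 in the DG, 63.4 in the CA and 16.6 in the NAc. The NAc was lowest in both treatments.

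Of 17 non-receptor tyrosine phosphatases and partners listed for Ptpn3, 16 were tested. In the DG 5 had an unadjusted p under 0.05, beside 12.8% of all genes, and 0 did in the NAc, CA and SVZ. Higher with METH were Ptpn1 (0.60, SE 0.21), a phosphatase of the endoplasmic reticulum that acts on the insulin receptor, Eps15 (0.46, SE 0.19), an endocytic adaptor, and Ptpn13 (0.41, SE 0.15), a large FERM and PDZ phosphatase. Lower were the synaptic scaffold Dlg1 (-0.75, SE 0.17) and Ptpn23 (-0.25, SE 0.105). Ptpn4, the closest relative of Ptpn3, differed little between treatments, by -0.02 in the DG (SE 0.13) and by -0.11 in the CA (SE 0.15). Like Ptpn3, its SVZ samples spread widely, at 275 ± 259 CPM in saline and 347 ± 191 CPM in METH samples (SD, n = 4).

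Plekhd1 (r = 0.92), Heg1, a receptor of vascular and neural development (0.88), and Megf9 (0.87) followed Ptpn3 over the 32 samples. Ptpn3 had r = 0.57 with the summed thalamic markers over all samples and 0.75 with group means removed, r = -0.65 with the striatal markers, and r = 0.67 with the dentate granule neuron markers (0.36 with group means removed). In SVZ Sal 1, METH 2 and METH 4, the libraries high in thalamic markers, the dentate sum was mostly Prox1. Prox1 was 153, 183 and 119 CPM there and C1ql2, another dentate marker, 3.73, 5.27 and 5.59 CPM. The r with the dentate sum is therefore not particular to dentate granule neurons. At an unadjusted p under 0.05, 1 of the 3 dentate markers tested was higher in the DG and 1 was lower in the CA. Of all genes 6.35% were higher in the DG and 2.79% lower in the CA. The markers' median log2 difference had the sign of that of Ptpn3, at 1.59 in the DG and -0.90 in the CA. Their summed levels overlapped between treatments in both regions. What part these cell types have in the differences of Ptpn3 was not tested.

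**Figure D5:**
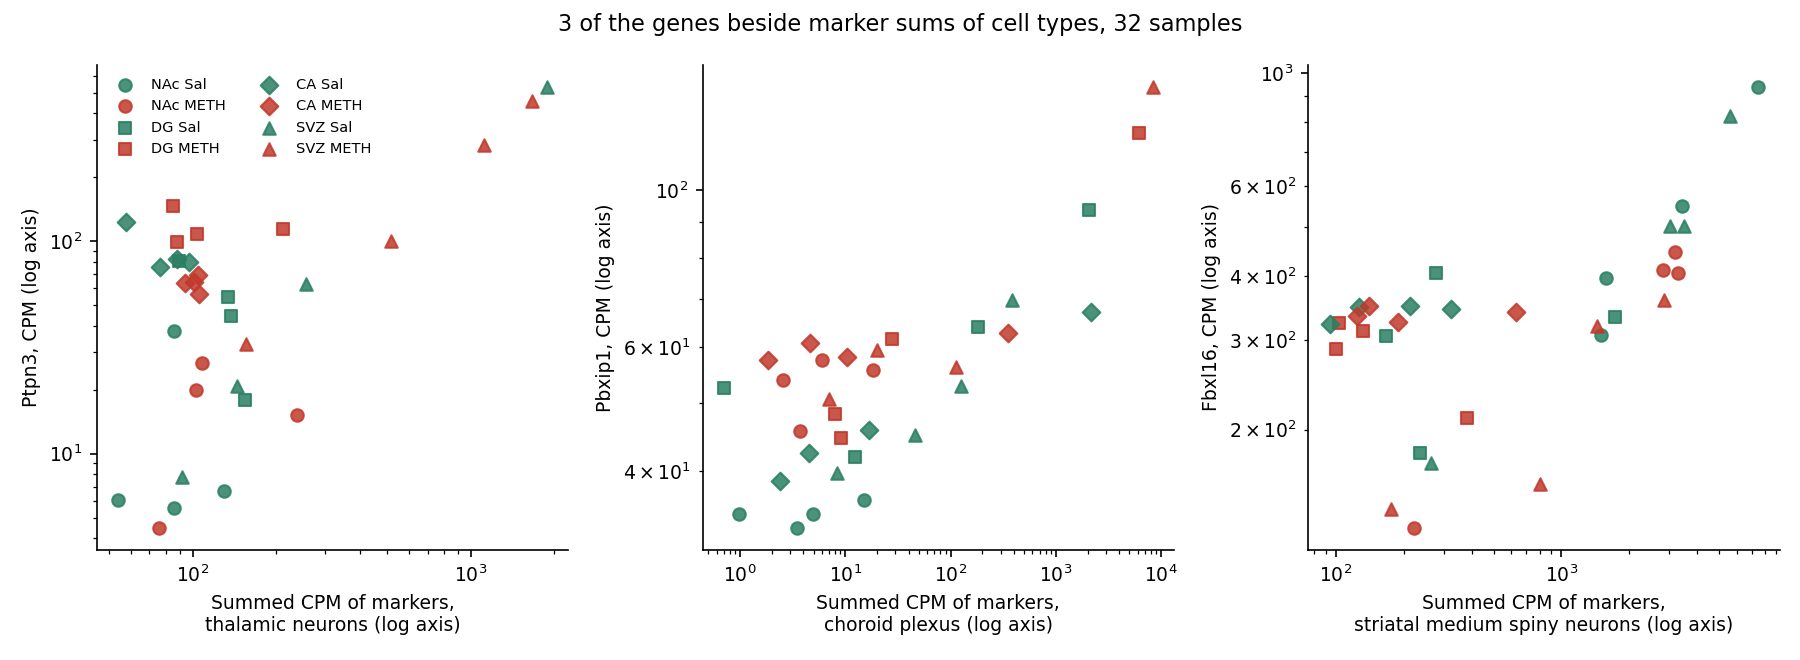
CPM of Ptpn3, Pbxip1 and Fbxl16 (vertical log axes) against the summed CPM of thalamic, choroid plexus and striatal medium spiny neuron markers (horizontal log axes) in 32 samples, with regions as shapes and saline in green, METH in red. Ptpn3 is highest in the 3 SVZ samples with 1112 to 1879 CPM of thalamic markers, Pbxip1 in SVZ METH 3 and DG METH 3, with 8301 and 6186 CPM of choroid plexus markers, and Fbxl16 in NAc Sal 1, with 7480 CPM of striatal markers.

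Pbxip1 lies on chromosome 2 of rn6, from 188766535 to 188776439 on the plus strand, with 10 blocks of exon sequence and 2976 exonic bases. In the NAc its level was 34.8, 36.5, 33.3 and 34.8 CPM in saline and 53.8, 45.6, 55.6 and 57.4 CPM in METH samples. All METH samples were higher, and the saline samples lay close together, with means of 34.8 ± 1.30 in saline against 53.1 ± 5.21 CPM with METH (SD, n = 4). The log2 fold change was 0.62 (SE 0.09), which ranked 1 of 14771 genes by p in the NAc, yet the FDR was 0.9995 by edgeR. Without NAc METH 3, the library low in striatal markers, it was 0.60. Within the run RNA3, which held both treatments in the NAc, Sal 3 and 4 had 33.3 and 34.8 CPM and METH 1 and 2 had 53.8 and 45.6 CPM.

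The 6 astrocyte markers in the NAc summed to 2557 to 2707 CPM in saline and 2944 to 4226 CPM in METH samples, without overlap, and 2 of 6 passed an unadjusted p of 0.05 upwards, beside 2.42% of all genes. Without Gfap the sums were 2282 to 2422 and 2545 to 3156 CPM, again without overlap. Their part in the difference of Pbxip1 was not tested. Choroid plexus markers summed to 0.980 to 15.1 CPM in NAc saline and 2.54 to 18.3 CPM in NAc METH samples.

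In the other regions the groups overlapped. The DG samples had 52.5, 63.9, 41.9 and 93.6 CPM in saline and 44.6, 48.2, 120 and 61.6 CPM with METH, a log2 difference of 0.13 (SE 0.36). It was -0.29 without DG METH 3, 0.39 without DG Sal 4 and -0.03 without DG Sal 3. The CA samples had 45.8, 67.2, 42.4 and 38.8 CPM in saline and 57.4, 62.9, 60.8 and 58.1 CPM with METH, a difference of 0.30 (SE 0.16), or 0.50 (SE 0.09) without CA Sal 2. The SVZ samples had 69.8, 39.8, 52.9 and 45.1 CPM in saline and 50.6, 56.3, 140 and 59.4 CPM with METH, a difference of 0.57 (SE 0.35). In each of these 6 groups the sample with the most choroid plexus markers also had the most Pbxip1: DG Sal 4, DG METH 3, CA Sal 2, CA METH 2, SVZ Sal 1 and SVZ METH 3. Without SVZ METH 3 the SVZ difference was 0.10 (SE 0.20), and without the 3 libraries high in thalamic markers it was 1.05. Over the 32 samples, Pbxip1 had r = 0.81 with the summed choroid plexus markers and 0.87 with group means removed. The part of choroid plexus in these values was not tested.

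In saline samples, Pbxip1 was lowest in the NAc, at 34.8 CPM, below the CA at 48.6, the SVZ at 51.9 and the DG at 63.0. The samples of each of these 3 regions were all above those of the NAc, a separation found for 2.9% of all genes in the DG, 21.8% in the CA and 7.53% in the SVZ. In edgeR 0 of 6 pairs passed, and 0 in DESeq2, while 2 had an unadjusted p under 0.05. The DG against the NAc gave 0.86 (SE 0.24, FDR 0.354), where 0% of genes passed. Without DG Sal 3 it passed, at 1.01 with an FDR of 0.0329 (leaving out 1 sample let 0 to 518 genes pass for this pair). Without DG Sal 3 and SVZ Sal 1 it did so with an FDR of 0.0124, where 1264 genes passed. Without DG Sal 4, which had 2083 CPM of choroid plexus markers, it was 0.60 with an FDR of 0.630, and over all samples left out in turn the FDR ran from 0.0329 to 0.707 by edgeR. In METH samples the NAc was again lowest, at 53.1 CPM, followed by the CA at 59.8, the DG at 68.7 and the SVZ at 76.5 CPM.

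Of 14 homeodomain partners and relatives listed for Pbxip1, 13 were tested. In the DG, 3 were lower with METH at an unadjusted p under 0.05, among them Pbx3, a TALE homeodomain factor (-1.603, SE 0.66), and Meis3, a partner of PBX proteins (-0.52, SE 0.15), beside 6.42% of all genes. Pbx3 was 24.9 ± 23.5 CPM in DG saline and 8.19 ± 4.13 CPM in DG METH samples (SD, n = 4), a wide spread in saline. The list's median was -0.44 in the DG, against -0.01 over all genes, and 0 list genes reached that p in the NAc, CA or SVZ. In the NAc, where Pbxip1 itself was higher, Pbx3 differed by -0.17 (SE 0.26) and Ccpg1, a related protein of the endoplasmic reticulum, by 0.09 (SE 0.17). Clu, the chaperone clusterin (r = 0.87), Arhgef18, a guanine nucleotide exchange factor (0.87), and Mfrp, a frizzled-related membrane protein (0.86), followed Pbxip1 over the 32 samples. Mfrp reached 226 CPM in DG METH 3, against 0.676 to 2.58 CPM in the other DG METH samples.

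Fbxl16 lies on chromosome 10 of rn6, from 15183803 to 15186978 on the plus strand, with 5 blocks of exon sequence and 1440 exonic bases. In the NAc its level was 938, 306, 549 and 396 CPM in saline and 411, 445, 128 and 406 CPM in METH samples. The groups overlapped, with the widest values in NAc Sal 1 and NAc METH 3, and the log2 difference was -0.64 (SE 0.44, FDR 0.9995). Those 2 samples hold the most and the least striatal markers of the NAc, 7480 and 222 CPM. Without NAc METH 3 the difference was -0.37, without NAc Sal 1 it was -0.25, and with the run as a covariate -0.13. With 4 RUVr factors, the fit in which this gene had the lowest adjusted p found here, it was -0.66 (SE 0.05).

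In the SVZ the saline samples had 172, 501, 825 and 502 CPM and the METH samples 319, 140, 359 and 156 CPM. All saline samples but Sal 1 were above all METH samples. The log2 difference was -1.03 (SE 0.49), with an FDR of 0.979 by edgeR and 0.0250 with 4 RUVr factors. Without Sal 1, METH 2 and METH 4, the libraries with high thalamic markers, it was -0.84 (SE 0.26). In the libraries kept, striatal markers summed to 3033, 5587 and 3510 CPM in Sal 2, 3 and 4 and to 1439 and 2859 CPM in METH 1 and 3. Over all 8 SVZ samples the 7 striatal markers had a median log2 difference of -1.24, and 0 had an unadjusted p under 0.05. In the DG the saline samples had 306, 406, 332 and 180 CPM and the METH samples 324, 312, 210 and 288 CPM, a difference of -0.11 (SE 0.24). In the CA the 8 samples lay close together, from 322 to 350 CPM in saline and from 325 to 349 CPM in METH samples, a difference of -0.02 (SE 0.065). Fbxl16 was thus least variable in the CA and most variable in the NAc and SVZ.

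Saline means were 547 CPM in the NAc, 499.7 in the SVZ, 341 in the CA and 306 in the DG. In edgeR and DESeq2 0 of 6 pairs passed, and 0 had an unadjusted p under 0.05. The widest gap, the DG against the NAc, was -0.84 log2 with a 95% interval from -1.70 to 0.0244 (unadjusted p = 0.0560, FDR 0.443 by edgeR). With each sample left out in turn this gap ran from -1.04 to -0.45, with FDRs from 0.250 to 0.751 by edgeR. Over the 32 samples r was 0.59 with the summed striatal markers and -0.62 with the thalamic markers, and 0.755 and -0.79 with group means removed. Their part in the differences was not tested.

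Of 22 F-box and SCF ligase genes listed for Fbxl16, 21 were tested. In the DG, Fbxl15 (0.49, SE 0.14) and Fbxl18 (0.74, SE 0.26) passed an unadjusted p of 0.05 upwards, beside 6.35% of all genes. In the CA Fbxl19 (0.28, SE 0.11) was higher, beside 4.37% of all genes, and 0 reached that p in the NAc or SVZ. The SCF core genes Skp1, the adaptor that binds F-box proteins, and Cul1, the cullin scaffold, differed by -0.09 (SE 0.09) and -0.03 (SE 0.08) in the NAc and by 0.01 (SE 0.12) and -0.06 (SE 0.10) in the SVZ. Lzts3, a postsynaptic scaffold (r = 0.94), Grm5, the glutamate receptor mGluR5 (0.92), and Akap5, a synaptic anchor of protein kinase A (0.92), followed Fbxl16 most closely. Akap5 was 252 CPM in NAc Sal 1 and 16.5 CPM in NAc METH 3.

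Cmc1 lies on chromosome 8 of rn6, from 126437345 to 126495347 on the minus strand, with 4 blocks of exon sequence and 676 exonic bases, and was the scarcest of the 6 genes. In the SVZ its level was 2.12, 1.43, 1.54 and 1.61 CPM in saline samples, from 28 to 45 reads, and 3.30, 4.39, 5.79 and 6.10 CPM in METH samples, from 62 to 130 reads. All METH samples were higher, with means of 4.90 ± 1.30 against 1.68 ± 0.31 CPM (SD, n = 4). The log2 fold change was 1.55 (SE 0.26), with an FDR of 0.979 by edgeR. Without Sal 1, METH 2 and METH 4, the libraries with high thalamic markers, it was 1.58 (SE 0.34).

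The METH libraries of the SVZ carry 2 numbers in the file headers, 1669 for METH 1 and 2 and 1670 for METH 3 and 4, so they may come from fewer than 4 sources. Summed by number, they gave a log2 fold change of 1.53 (SE 0.29). The word EXTRA stands in the names of Sal 1 and 2 and METH 2 and 4, and with it as a covariate the fold change was 1.55. Within the libraries without that word, Sal 3 and 4 had 1.54 and 1.61 CPM and METH 1 and 3 had 3.30 and 5.79 CPM.

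In the other regions Cmc1 did not separate the treatments. The NAc samples lay between 1.54 and 2.40 CPM in saline and between 1.81 and 2.14 CPM with METH. The DG samples lay between 1.31 and 2.71 CPM in saline and between 1.01 and 3.07 CPM with METH, and the CA samples between 1.15 and 2.67 CPM in saline and between 1.00 and 1.89 CPM with METH. The log2 differences were 0.10 (SE 0.21), 0.13 (SE 0.39) and -0.02 (SE 0.34). These rested on 12 to 50 reads per sample.

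Saline means of Cmc1 lay close together, at 1.90 CPM in the NAc, 1.77 in the DG, 1.68 in the SVZ and 1.61 in the CA. In edgeR and DESeq2 0 of 6 pairs passed, and 0 had an unadjusted p under 0.05. The 95% interval of the SVZ against the CA ran from -0.62 to 0.71. In METH samples the SVZ, at 4.90 CPM, stood above the NAc at 2.03, the DG at 1.94 and the CA at 1.603 CPM.

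Of 24 cytochrome c oxidase assembly genes listed for Cmc1, 19 were tested. In the SVZ, Coa7 was lower at an unadjusted p under 0.05 (-0.34, SE 0.14) and 0 were higher, beside 1.39% and 1.19% of all genes. Cmc2, the closest relative, differed in the SVZ by 0.33 (SE 0.47), and Cox14 and Coa3, which act with Cmc1 on the first subunit of the oxidase, by -0.28 (SE 0.22) and 0.11 (SE 0.22). In the DG, Cox17, a copper chaperone of the oxidase, was lower (-0.84, SE 0.29), beside 6.42% of all genes, and in the NAc and CA 0 list genes reached that p. Csad, an enzyme of taurine synthesis (r = 0.77), Hsd17b4, a peroxisomal enzyme (0.745), and Anxa9 (0.715) followed Cmc1 most closely over the 32 samples, and with group means removed these were 0.51, 0.48 and 0.46. Csad ranged from 25.8 to 37.7 CPM in SVZ saline and from 33.4 to 49.1 CPM in SVZ METH samples. Over the 32 samples Cmc1 had r = 0.62 with the summed thalamic markers and 0.52 with the oligodendrocyte markers, and 0.32 and 0.19 with group means removed.

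Across all 6 lists, 116 of 125 genes were tested in each region. At an unadjusted p under 0.05 there were 0 in the NAc, 18 in the DG, 6 in the CA and 1 in the SVZ, beside 3.39%, 12.8%, 7.16% and 2.58% of all genes. In edgeR 0 passed an FDR of 0.05, while DESeq2 called 4 in the DG, beside 3.47% of all genes, and 0 elsewhere.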

How the data were processed

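The authors trimmed the reads with cutadapt 2.7, mapped them to rn6 with STAR 2.5.2b and deposited, for each sample, unnormalized read counts per gene from featureCounts 1.6.3 (Ensembl release 95 per the file headers, mapping quality of at least 10, strand ignored). The versions used were R 4.3.3, edgeR 4.0.16 and DESeq2 1.42.0, and for tables and figures Python 3.11.15, pandas 2.3.3 and matplotlib 3.10.9. Tool versions of the authors come from the submitters' processing notes. Genes were filtered with filterByExpr and normalized by the upper quartile, and METH was compared with saline within each region (8 samples) by edgeR's quasi-likelihood method. Region pairs were tested in 1 fit of the 16 saline samples, with Benjamini-Hochberg adjustment over 15515 genes within each pair, and 95% intervals use the t quantile of the fit's total degrees of freedom. CPM used upper-quartile library sizes over the 32 samples, and correlations used log2(CPM + 1).

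The genes, their lists and the markers were chosen with earlier results of these data known. Named besides the 6 genes were the 3 most correlated genes, fixed close relatives, and the list gene of lowest p. For 1 list that gene is not reported here. Other list genes at an unadjusted p under 0.05 were named after their values were seen. Alternatives were TMM, DESeq2, no filter, 1 fit of 32 samples, a replicate block, the run, RUVr factors (1, 2 or 4, written anew from the published steps), each sample left out, DG replicates 3 and 4, and summed SVZ METH libraries. The word EXTRA, the astrocyte sums without Gfap and the joint removal of libraries that stood apart were added after seeing the data. Procedures were run on simulated counts with 200 changed genes, of which 128 to 165 were recovered at an FDR under 0.05, with 6 to 12 wrong calls. Those counts had less spread than the DG and SVZ samples and no mixed libraries. They do not show how well the procedures do on these data.

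Same-numbered NAc and CA saline samples, which share library numbers in the file headers, deviated together in all 4 pairs (r from 0.12 to 0.24), so the number was taken to pair them. Same-numbered saline and METH samples did not (r from -0.77 to 0.40). Replicates differed beyond sampling noise, with a chi-square per gene of 15.4 to 178 over 48 pairs of samples.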

Additional observations from a re-analysis of the deposited data

Results flagged for a closer look

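In 6 of the 48 groups of 4 samples (6 genes by 8 groups), a single sample stood far from the other 3, judged by its gap over the group's range. Chance flags about 1 group in 20. Ptpn3 accounted for 3 of them: NAc Sal 4 at 37.6 CPM, CA Sal 1 at 124 CPM and SVZ Sal 1 at 531 CPM. The others were Arhgef25 in DG Sal 4 at 50.9 CPM, Pbxip1 in SVZ METH 3 at 140 CPM and Fbxl16 in NAc METH 3 at 128 CPM.

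The difference of Ptpn3 between METH and saline had opposite signs in 2 regions, at 1.25 log2 in the DG and -0.51 log2 in the CA, and neither region had overlapping groups. The gene was chosen on this contrast. The FDRs were 0.263 and 0.669 by edgeR, or 0.00946 and 0.0190 with 4 RUVr factors. The values were 0.97 without DG Sal 3 and -0.32 without CA Sal 1. The difference between the regions was not tested.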

How the results depend on the processing

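No METH difference of the 6 genes is a test here, since the genes were chosen on it. The number of genes at an unadjusted p under 0.05 moved with the setting. With the replicate number as a block it was 295 in the NAc and 167 in the SVZ, and with the sequencing run as a covariate 278 in the NAc. With 1, 2 and 4 RUVr factors it was 1293, 2027 and 2885 in the NAc and 2397, 3127 and 3812 in the SVZ. With 2 and 4 factors it was 3030 and 3674 in the DG and 1947 and 3234 in the CA. In 1 fit of all 32 samples it was 588 in the CA and 832 in the SVZ. DG replicates 3 and 4 alone gave 1033. In the SVZ it was 176 with METH libraries summed by number, 748 with EXTRA as a covariate and 1080 without the 3 libraries high in thalamic markers. Leaving out each sample gave 331 to 761 in the NAc, 1225 to 2070 in the DG, 623 to 1639 in the CA and 156 to 2596 in the SVZ.

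Calls between saline regions moved as well. DESeq2 called 68 genes for the DG against the NAc, 1787 for the CA against the NAc, 296 for the SVZ against the NAc, 5 for the CA against the DG and 668 for the SVZ against the DG. The fit of all 32 samples gave 1901 for the CA against the NAc, 141 for the SVZ against the NAc, 531 for the SVZ against the DG and 3165 for the SVZ against the CA. Without DG Sal 3 and SVZ Sal 1 the calls were 1264 for the DG against the NAc, 2207 for the CA against the NAc, 2013 for the SVZ against the DG and 3366 for the SVZ against the CA. With no filter on low counts they were 511 for the CA against the NAc, 0 for the SVZ against the NAc and 5 for the SVZ against the DG, and the block gave 15 for the SVZ against the DG. At an FDR under 0.01 with a fold above 2 they were 0 for the CA and 0 for the SVZ against the NAc, 3 for the SVZ against the DG and 126 for the SVZ against the CA. Leaving out each sample gave 0 to 518 for the DG, 0 to 1568 for the CA and 0 to 37 for the SVZ against the NAc, 0 to 1 for the CA and 0 to 742 for the SVZ against the DG, and 668 to 2830 for the SVZ against the CA.

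Some region differences changed sign. Most were near 0, but Ptpn3 went from 1.65 for the SVZ against the DG and 0.78 for the SVZ against the CA to the values below 0 given here. For the DG against the NAc, Arhgef25 was 0.0237 under TMM and 0.0099 under DESeq2, and for the SVZ against the DG 0.0105 under the block. For the SVZ against the CA, Cxxc4 was -0.0336 under TMM, -0.0121 with no filter and -0.0313 under DESeq2, Cmc1 was -0.0121 under TMM and -0.0174 under DESeq2, and Ptpn3 was -0.21 under the block. Without DG Sal 3 and SVZ Sal 1, Arhgef25 was 0.13 and Fbxl16 0.15 for the SVZ against the NAc, and Arhgef25 was 0.17 and Ptpn3 -0.97 for the SVZ against the DG. In that fit Cxxc4 was -0.0609, Ptpn3 -1.56, Pbxip1 -0.0784 and Cmc1 -0.0882 for the SVZ against the CA. The cause was not tested. With each sample left out, Arhgef25 lay between -0.0891 and 0.0844 for the DG against the NAc, -0.13 and 0.13 for the SVZ against the NAc and -0.11 and 0.14 for the SVZ against the DG, and Cmc1 between -0.38 and 0.0335 for the DG against the NAc, -0.49 and 0.15 for the CA against the DG, -0.21 and 0.20 for the SVZ against the DG and -0.0884 and 0.41 for the SVZ against the CA. Fbxl16 lay between -0.48 and 0.26 for the SVZ against the NAc and -0.0270 and 0.33 for the CA against the DG, Ptpn3 between -0.69 and 2.05 for the SVZ against the DG and -1.56 and 1.18 for the SVZ against the CA, Cxxc4 between -0.17 and 0.24 and Pbxip1 between -0.0799 and 0.29 for the SVZ against the CA.

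The Arhgef25 call for the CA against the NAc was lost under the replicate block (0.91, FDR 0.0670). Among the lists, TMM lowered the count of Ptpn3 list genes lower in the DG to 1 and raised that of Fbxl16 list genes lower in the NAc to 1. The block raised the FDR of Cxxc4 in the DG to 0.112 by edgeR, with the same direction. Of the values for saline region pairs and lists, 1227 kept their direction and their side of the threshold or their size. Of the rest, 47 changed sign, 34 moved, 13 lost a call and 5 gained one. That tally leaves out the METH differences of the 6 genes. With 4 RUVr factors, METH FDRs were under 0.05 for Arhgef25 and Ptpn3 in the DG, CA and SVZ. The same held for Pbxip1 and Fbxl16 in the NAc and SVZ, Cxxc4 in the DG and Cmc1 in the SVZ. The share of all genes under that FDR with 4 factors is not reported here. At an unadjusted p under 0.05, 4 factors gave 2885 genes in the NAc, 3674 in the DG, 3234 in the CA and 3812 in the SVZ. Without factors there were 500, 1890, 1046 and 402, so nothing about the 6 genes is read from these calls.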
